A study of Sus scrofa with 6 samples.

Results

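Inhibin, activin, follistatin and anti-Müllerian hormone form a small signalling system of the growing ovarian follicle, and 5 of its genes were followed here: INHA, INHBA, INHBB, FST and AMH. Every probe set whose platform annotation names 1 of these symbols alone was taken, which gave 7 of 23999 probe sets without controls. INHA, INHBA and AMH had 1 probe set each, and INHBB and FST had 2 each, told apart below by the ending of their identifiers, S1_at or A1_at. No probe set named a member together with another gene.

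Transcripts of pig ovarian follicles were read on 6 Affymetrix porcine arrays, 1 colour each, titled as 2 biological replicates for each of 3 stages. The follicles came from gilts, young female pigs, before puberty, and were sorted by form and diameter. The labels name the groups primordial, the term for follicles that have not begun to grow, middle stage and last stage. No treatment, allele or strain separates the stages, and the number of animals or follicles behind an array is not given in the sources used here, so a p-value reflects only how these samples vary, which may be technical. A separate description calls all 6 samples primordial, so the stages rest on the titles.

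Inhibins and activins are dimers of shared parts. An alpha subunit joined to a beta subunit makes inhibin, a granulosa cell hormone that lowers the release of follicle-stimulating hormone from the pituitary, whereas a pair of beta subunits makes activin, which raises it. Follistatin is a secreted protein that binds activin and keeps it from its receptors. AMH, a more distant relative of the same TGF-beta family, comes from granulosa cells of follicles early in growth and restrains the start of growth of primordial follicles, as shown in mice.

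Marker genes set the stages apart, and oocyte markers were dim in the arrays labelled primordial. The summed signal of 11 oocyte genes was 482 to 495 in the primordial arrays, 20064 to 21821 in the middle arrays, and 888 to 907 in the last arrays. For 15 granulosa genes it was, in the same order, 51801 to 64926, 36366 to 37848 and 70328 to 73243, and for 16 immune genes 64921 to 68828, 2069 to 2586 and 5228 to 8751. For 8 theca genes the sum was 6639 to 6688, 5808 to 6063 and 21225 to 24894, and for 10 stromal fibroblast genes 1556 to 1574, 16639 to 25575 and 22536 to 25578. The largest primordial means among the immune genes were those of CCL4, IL1B and CXCL8, at 16614, 14032 and 10273. No marker was listed at 0, and of the 15 granulosa genes FOXL2, CYP19A1, KITLG and VNN1 fell under the filter on dim probe sets. So did BMP15 and DDX4 of the oocyte genes and PTPRC and CD14 of the immune genes. These samples are whole follicle RNA, in which fewer cells of a type and less RNA per cell cannot be told apart. In the arrays labelled primordial the oocyte sum was lowest and the immune sum highest. Of the marker genes, CYP19A3, HSD17B1 and CYP11A1 had mean signals there of 9934, 10738 and 4492, while CYP17A1 and STAR had 25.25 and 27. Whether these arrays hold follicles that have not begun to grow was not tested, and primordial is used below only as their label.

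AMH and INHA changed in opposite directions in the middle arrays. AMH was brightest there and INHA dimmest, and INHBA, the beta A subunit, had no called difference between stages. One FST probe set followed the INHA direction, and the other was low in the primordial arrays and high at both later stages. Values are linear array signals scaled by the authors, and differences were fitted with limma on log2(signal + 16), a scale that understates the change of dim genes. Errors are standard errors of that fit, from 2 arrays in each stage. A difference was called when its p, adjusted by Benjamini-Hochberg over all 14399 probe sets above the filter, was under 0.05.

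**Figure D1:**
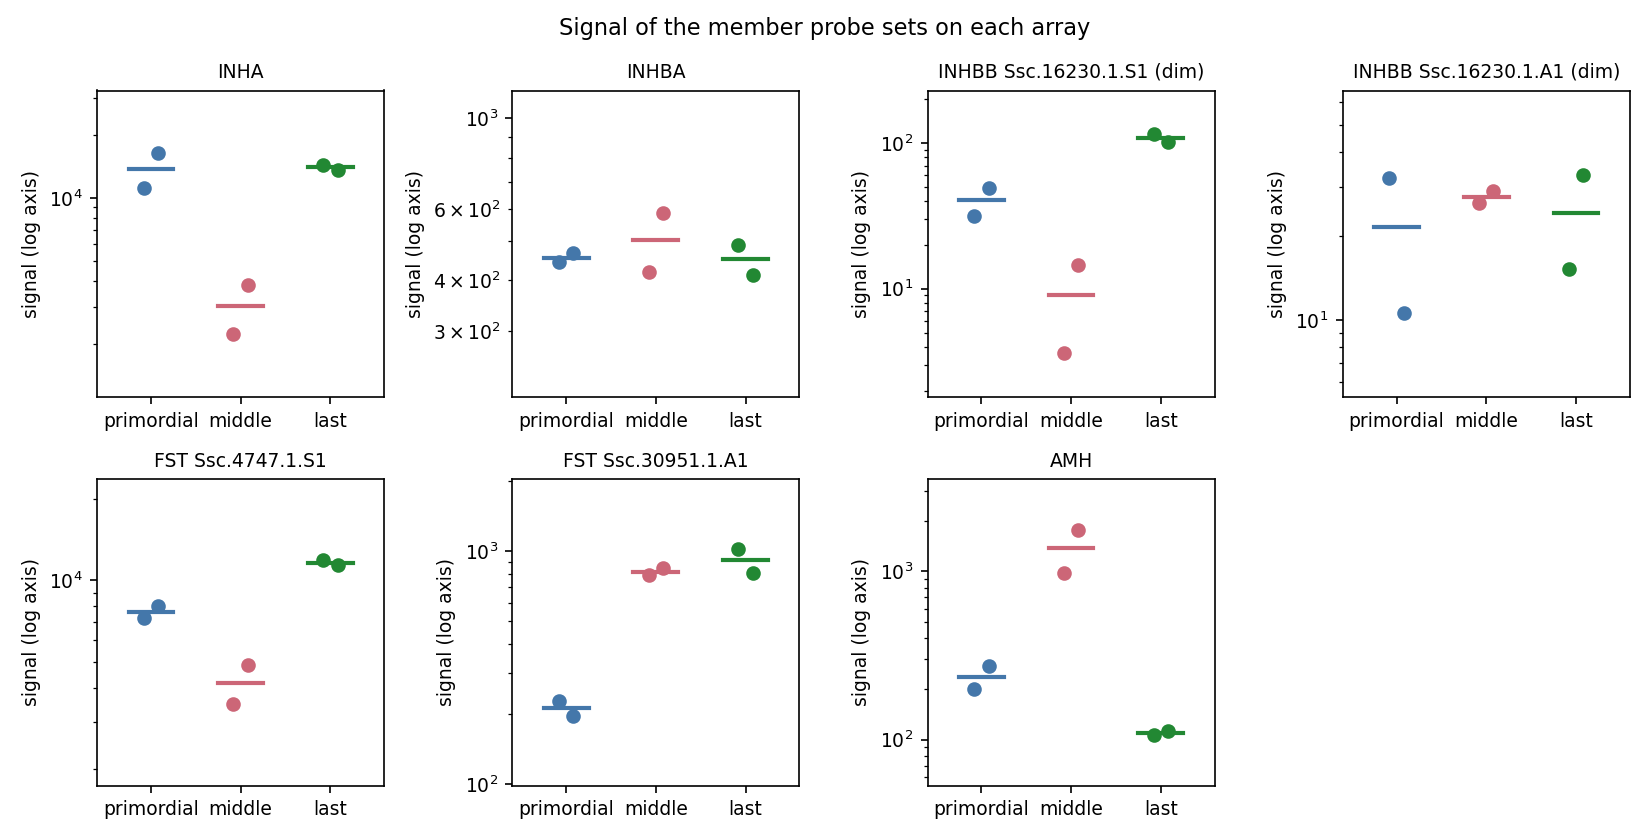
Signal (log axis, a different range in each panel) of the 7 member probe sets on each of the 6 arrays, by stage. Points are arrays and bars are the stage mean; INHA is lowest in the middle arrays (mean 3021), AMH highest there (mean 1367), and both INHBB probe sets, marked dim, lie below the filter.

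INHA, the alpha subunit that makes a dimer an inhibin, had signals of 11118 and 16319 in the primordial arrays, 2219 and 3823 on the middle-stage arrays and 14359 and 13618 in the last arrays. Both middle arrays lay below all 4 others, while the last arrays fell between the primordial ones. Middle arrays were lower than primordial arrays by 4.60-fold, a difference of -2.20 ± 0.26 (log2, adjusted p = 0.000182). A larger absolute difference was seen in 7.54% of all probe sets. Last arrays were higher than middle arrays by 4.78-fold, at 2.26 ± 0.26 (adjusted p = 0.000525), and 2.42% of all probe sets had a larger absolute difference in that comparison. Between last and primordial arrays the difference was 0.05 ± 0.26 (adjusted p = 0.890), with a 95% interval of -0.53 to 0.63, so these stages did not differ beyond their spread. With each array centred on its median this small difference had the other sign, at -0.08. The summed signal of the granulosa list given above was also lowest in the middle arrays, but its genes went both ways. Of 11 tested, CYP19A3, HSD17B1, NR5A2 and SERPINE2 were lower in the middle than in the primordial arrays, while AMHR2, GATA4, WT1 and NR0B1 were higher, with a median of 0.13 over the 11. Of all probe sets 17.7% were called lower and 29.7% higher in that comparison, with a median of 0.22. The part of the granulosa markers in the INHA difference was not tested.

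INHBA encodes the beta A subunit, which makes activin A with itself and inhibin A with the alpha subunit. Its signals were 444 and 467 in the primordial arrays, 420 and 586 on the middle-stage arrays and 490 and 414 in the last arrays. The stages overlapped in each pair, the highest value being a middle array and the lowest a last array. The log2 difference was 0.12 ± 0.23 for middle minus primordial, with a 95% interval of -0.41 to 0.65 (adjusted p = 0.702). For last minus middle it was -0.14 ± 0.23, with an interval of -0.66 to 0.39 (adjusted p = 0.733), and for last minus primordial -0.02 ± 0.23, with an interval of -0.55 to 0.51 (adjusted p = 0.964). These intervals leave room for differences smaller than the INHA change but not for one of its size. The sign of the difference changed with the scaling: with each array centred on its median, middle minus primordial was -0.12.

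INHBB encodes the beta B subunit, the partner in inhibin B and activin B. Both of its probe sets were dim, with mean signals of 52.5 and 24.4 over the 6 arrays against the lowest mean kept of 91.3, and neither passed the filter. The INHBB S1_at probe set had 31.6 and 49.1 in the primordial arrays, 3.6 and 14.6 on the middle-stage arrays and 115 and 102 in the last arrays. The 3 stages did not overlap, with the middle arrays lowest and the last arrays highest, but a signal of 16 or less was read for 12.8% to 18.0% of all probe sets on an array. In a fit without the filter, in which 8.78% of all probe sets were called for last minus middle, that difference was 2.34 ± 0.40 (limma adjusted p = 0.0106), a call that ended without middle replicate 1 (2.02, adjusted p = 0.110) and without last replicate 1 (2.26, adjusted p = 0.0546). Middle minus primordial was -1.18 ± 0.40 (adjusted p = 0.0559) and last minus primordial 1.16 ± 0.40 (adjusted p = 0.0848). With each array centred on its median, middle minus primordial passed (-1.42, adjusted p = 0.0301). Since the middle signals lie below the pseudocount of 16, the sizes depend on it: last minus middle was 3.68 with a pseudocount of 1 and 1.24 with 64 (adjusted p = 0.0209 and 0.00766), and middle minus primordial -2.25 and -0.51 (0.0519 and 0.0780). The INHBB A1_at probe set, annotated to the same transcript, had 32.3 and 10.6, then 26.2 and 29.0, then 15.2 and 33.1 in stage order. Its stages overlapped in each pair, its adjusted p was 0.673 to 0.885 in the pairwise comparisons, and it showed no trough in the middle arrays.

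FST, which encodes follistatin, gave results that depended on the probe set. The S1_at probe set, annotated to the RefSeq transcript of the gene, had 7276 and 8005 in the primordial arrays, 3485 and 4846 on the middle-stage arrays and 11831 and 11392 in the last arrays. The stages did not overlap, and their order was last, primordial, middle from bright to dim. Middle arrays were lower than primordial arrays by 1.85-fold, at -0.89 ± 0.18 (adjusted p = 0.00297), and last arrays were higher than middle arrays by 2.82-fold, at 1.49 ± 0.18 (adjusted p = 0.000646). The step between last and primordial arrays was smaller, at 0.60 ± 0.18 (adjusted p = 0.0273). That call ended with each array centred on its median (0.47, adjusted p = 0.0690). It also ended without last replicate 1 (0.58, 0.0886), last replicate 2 (0.63, 0.0575), primordial replicate 1 (0.54, 0.136) or primordial replicate 2 (0.67, 0.0757), values being the difference and its adjusted p. The granulosa, theca and endothelial sums had the same order of stages as this probe set, but not all of their genes did. Of the theca genes only CYP11A1 and LHCGR had their lowest stage mean in the middle arrays. For CYP17A1, INSL3, STAR, HSD3B1, NR2F2 and GLI1 it was in the primordial arrays. Of 8 theca genes tested, 5 were called higher and 1 lower in middle minus primordial, with a median of 1.32. Among 8 endothelial genes tested there, 1 was called lower and 7 were not called, with a median of 0.04. The part of these lists in the differences of this probe set was not tested.

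The A1_at probe set of FST is annotated to the same gene through a sequence that is not a RefSeq transcript. It had 227 and 197 in the primordial arrays, 787 and 849 on the middle-stage arrays and 1020 and 806 in the last arrays. The primordial arrays lay below all 4 others, and the middle and last arrays overlapped. Middle arrays were higher than primordial arrays by 3.66-fold, at 1.87 ± 0.22 (adjusted p = 0.000178), opposite to the other FST probe set. Last arrays were higher than primordial arrays by 4.05-fold, at 2.02 ± 0.22 (adjusted p = 0.000282), whereas last minus middle was 0.15 ± 0.22 with a 95% interval of -0.34 to 0.64 (adjusted p = 0.685). Without last replicate 1 the last minus middle difference was -0.020. The stromal fibroblast sum was likewise low in the primordial arrays and high at both later stages, and its part in these differences was not tested.

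The gap between the FST probe sets was followed within each array, as S1_at minus A1_at on the log2(signal + 16) scale. It was 4.91 and 5.23 in the primordial arrays, 2.12 and 2.49 on the middle-stage arrays and 3.52 and 3.80 in the last arrays. The stages did not overlap, and the gap moved by -2.76 (middle minus primordial), 1.35 (last minus middle) and -1.41 (last minus primordial), against standard deviations of 0.20 to 0.26 within a stage (n = 2). A two-sided exact permutation test of 2 arrays against 2 gave p = 0.333 each time, the smallest it allows. Only the change of the gap can be read, since the brightness of different probe sets is not comparable. The 3′ minus 5′ signal of the GAPDH control (log2), a sign of RNA quality, was 3.42 and 2.68 in the primordial arrays, 3.28 and 2.78 on the middle-stage arrays and 1.89 and 1.86 in the last arrays. For the actin control it was 3.55 and 3.20, then 4.93 and 4.19, then 3.88 and 3.55 in stage order. The part of RNA quality in the gap was not tested.

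**Figure D2:**
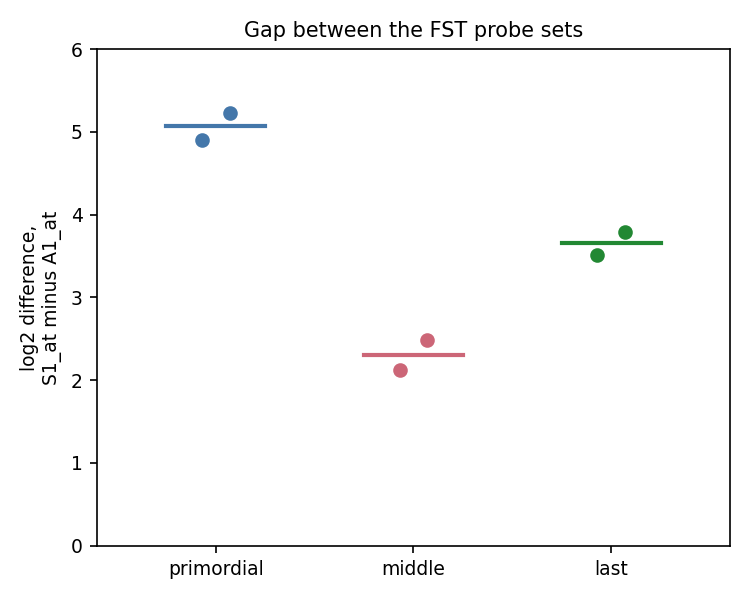
Log2 difference between the FST probe sets, S1_at minus A1_at, on each array by stage; points are arrays and bars stage means. The gap is widest in the primordial arrays (4.91 and 5.23) and narrowest in the middle arrays (2.12 and 2.49).

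AMH had signals of 199 and 273 in the primordial arrays, 970 and 1764 on the middle-stage arrays and 107 and 113 in the last arrays. The 3 stages did not overlap, and the middle arrays were the brightest. Middle arrays were higher than primordial arrays by 5.32-fold, at 2.41 ± 0.31 (adjusted p = 0.000289), with 5.87% of all probe sets at a larger absolute difference. Last arrays were lower than middle arrays by 10.5-fold, at -3.40 ± 0.31 (adjusted p = 0.000135), and 0.701% of all probe sets had a larger absolute difference there. In last minus primordial 22.2% of all probe sets had a larger absolute difference than AMH. The lower signal of last against primordial arrays, at -0.99 ± 0.31 (adjusted p = 0.0346), was also called. This call ended without last replicate 1 (-0.95, adjusted p = 0.0998), last replicate 2 (-1.02, 0.0703), primordial replicate 1 (-1.20, 0.0540) or primordial replicate 2 (-0.77, 0.185). Of the marker lists, the oocyte sum given above was highest in the middle arrays, as AMH was, but unlike AMH it was higher in the last than in the primordial arrays. The surface epithelium sum had the order of AMH in all 3 stages, but KRT18 and KRT19 of this list fell under the filter. In last minus primordial KRT8 was not called, at -0.05 ± 0.27 (adjusted p = 0.905). EPCAM and CDH1 were lower there, at -1.75 ± 0.34 (adjusted p = 0.00446) and -0.91 ± 0.29 (adjusted p = 0.0386). The sum of 5 surface epithelium genes was 353 to 482 in the primordial arrays, 1351 to 1385 on the middle-stage arrays and 221 to 240 in the last arrays, and the part of either list in the AMH differences was not tested.

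**Figure D3:**
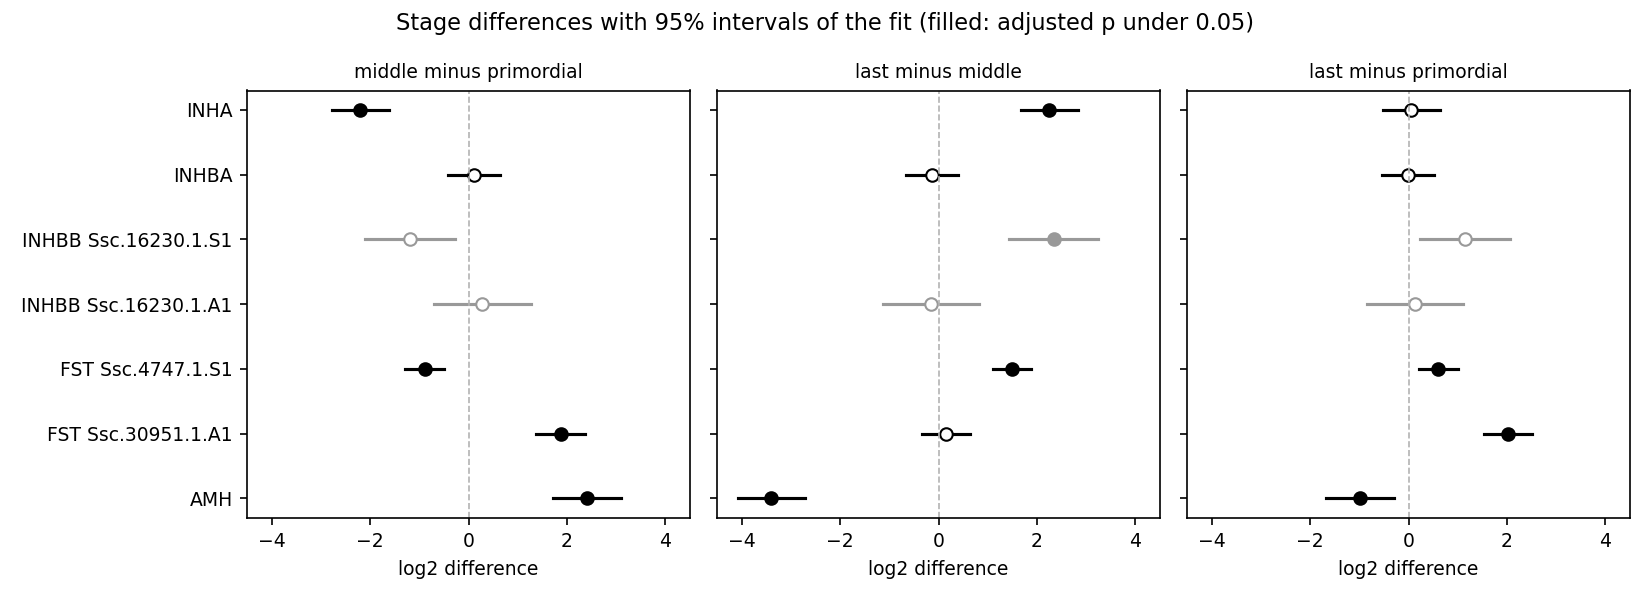
Log2 differences between stages for the 7 member probe sets, with 95% intervals of the limma fit; grey marks the INHBB probe sets, fitted without the filter, and filled points passed an adjusted p of 0.05. AMH and INHA lie on opposite sides of 0 in the first and second panels, and the FST probe sets do so in the first.

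Set against all probe sets, the members' counts read as follows. In middle minus primordial 4 of the 5 tested member probe sets were called, 2 higher and 2 lower, against 47.4% of all, with 29.7% higher and 17.7% lower. In last minus middle 3 of 5 were called, 2 higher and 1 lower, against 17.2% of all, with 7.29% higher and 9.94% lower. Last against primordial arrays also gave 3 of 5, 2 higher and 1 lower, against 33.2% of all, with 19.8% higher and 13.4% lower. By limma's F-test for any difference among the stages 4 of 5 were called, all but INHBA, against 50.3%. The median difference of the 5 was 0.12, 0.15 and 0.05 in the 3 comparisons, beside 0.22, -0.07 and 0.14 over all probe sets. Stages that do not overlap are common in these data, at 76.7% of all probe sets for middle and primordial arrays, 60.2% for last and middle and 69% for last and primordial arrays.

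**Figure D4:**
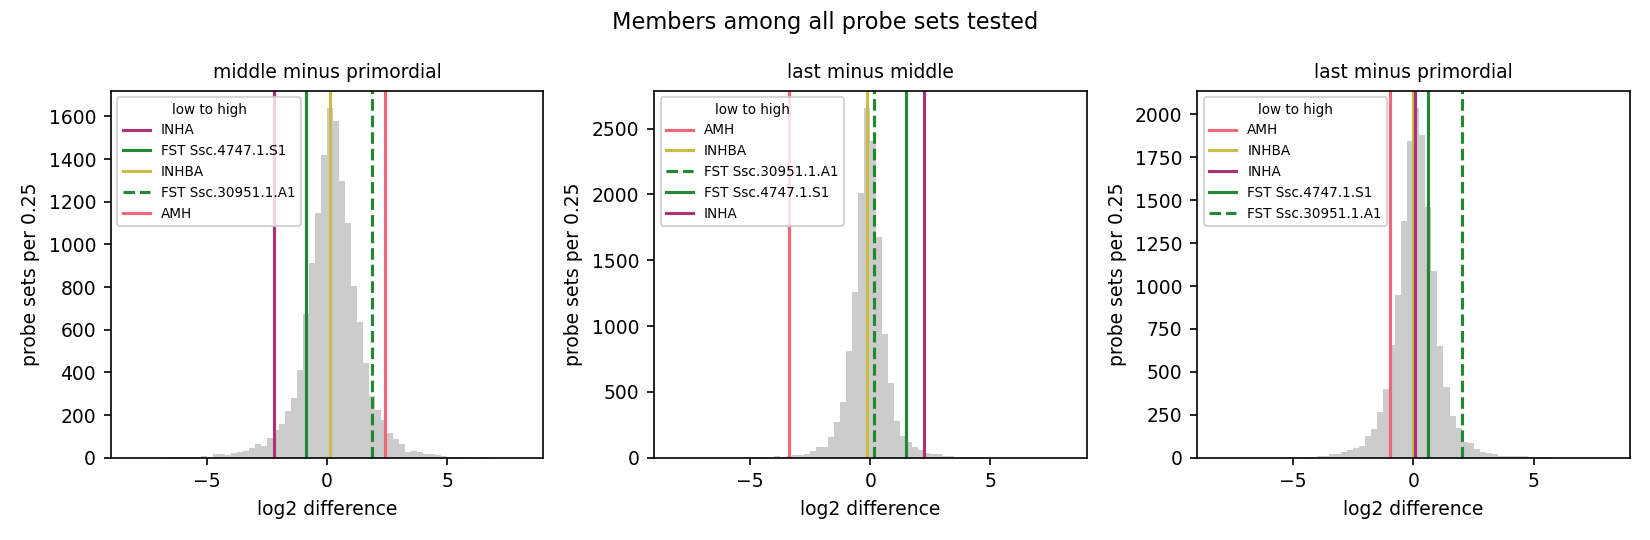
Distribution of the log2 difference over all 14399 probe sets tested (grey, counts per 0.25), with lines at the 5 tested member probe sets, listed from low to high. INHBA sits near the middle of each distribution, and AMH (-3.40) is far in the lower tail of last minus middle.

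The middle arrays were also set against the average of the other stages, as middle minus the mean of primordial and last. A call here can come from a difference to only one of those stages. AMH was higher in the middle arrays by 2.90 ± 0.27 (adjusted p = 8.50e-05), and INHA was lower by -2.23 ± 0.22 (adjusted p = 0.000132). For FST the S1_at probe set was at -1.19 ± 0.15 (adjusted p = 0.000476) and the A1_at probe set at 0.86 ± 0.19 (adjusted p = 0.00689). The last of these calls ended without middle replicate 1 (0.92, adjusted p = 0.0537) and without middle replicate 2 (0.81, 0.0539). In this comparison 4 of 5 were called, against 37.5% of all probe sets. The comparison was chosen because AMH was already known to be highest there, so the AMH call and the count are no independent test. FST A1_at was called although its middle and last arrays overlapped, with last minus middle at 0.15 ± 0.22 (limma adjusted p = 0.685).

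The genes that carry these signals were described with fixed lists of 61 genes, of which 39 were on the array and 28 passed the filter, at 1 probe set per gene. For middle minus primordial 8 were called higher and 6 lower, or 50% of the 28, near the 47.4% of all probe sets. For last minus middle the counts were 6 and 6, or 42.9% against 17.2% of all, and between last and primordial arrays 10 and 7, or 60.7% against 33.2%. The brightest probe set stood for each gene. Of these 43 calls, 25 held under each of 10 alternatives (3 other scalings, a replicate block and each array left out), and none changed direction. The gene calls named below are among the 25 unless said otherwise.

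Among 7 tested receptors 1 was higher and 1 lower in middle minus primordial. Another 2 calls were lower in last minus middle, as were 2 between last and primordial arrays. Each time this was 28.6% of the 7, against 47.4%, 17.2% and 33.2% of all probe sets. AMHR2, the type II receptor that binds AMH, had 262 and 321 in the primordial arrays, 656 and 785 on the middle-stage arrays and 272 and 416 in the last arrays. It was brightest in the middle arrays, as AMH was, and middle minus primordial was 1.26 ± 0.26 (adjusted p = 0.00370). Its fall in last minus middle, at -1.06 ± 0.26 (adjusted p = 0.0233), was not called without middle replicate 1 (adjusted p = 0.100), middle replicate 2 (0.123) or last replicate 1 (0.103). ACVR1B, the type I receptor of activin, had 1017 and 1019 in the primordial arrays, 763 and 616 in the middle ones, then 358 and 405 in the last, with no overlap. Last minus primordial was -1.38 ± 0.21 (adjusted p = 0.00148). BMPR1B, a type I receptor of bone morphogenetic proteins, was also lower in the last than in the primordial arrays, at -1.17 ± 0.19 (adjusted p = 0.00221). Its other tested probe set was not called, at -0.60 ± 0.31 (adjusted p = 0.172). ACVR2A, the type II receptor for which inhibin competes with activin, was not called in any pair, at -0.65 ± 0.31 for middle minus primordial (adjusted p = 0.116). TGFBR3, or betaglycan, the co-receptor that holds inhibin at ACVR2A, was dim at 29.9 to 39.3 by stage mean, with an adjusted p of 0.891 to 0.943 in the fit without the filter.

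Behind the receptors, SMAD3, which carries the activin and TGF-beta signal to the nucleus, had 568 and 607 in the primordial arrays, 210 and 186 on the middle-stage arrays and 142 and 191 in the last arrays. It was lower in the middle than in the primordial arrays by -1.50 ± 0.24 (adjusted p = 0.00105) and lower in the last than in the primordial arrays by -1.74 ± 0.24 (adjusted p = 0.000967). Of 3 SMAD genes tested it was the only one called. FSTL3, a follistatin relative that also binds activin, had 855 and 861 in the primordial arrays, 654 and 899 on the middle-stage arrays and 390 and 621 in the last arrays. Its last minus primordial difference of -0.78 ± 0.26 (adjusted p = 0.0475) is not among the 25. The adjusted p was 0.0510 with quantile normalization and 0.0593 to 0.252 without primordial replicate 1, primordial replicate 2, middle replicate 1, middle replicate 2 or last replicate 1.

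Related ligands differed among themselves. GDF9, an oocyte growth factor of the same family, had 137 and 151 in the primordial arrays, 1396 and 1433 on the middle-stage arrays and 202 and 162 in the last arrays. Like AMH it was brightest in the middle arrays, at 3.16 ± 0.22 for middle minus primordial (adjusted p = 1.53e-05) and -2.86 ± 0.22 for last minus middle (adjusted p = 6.11e-05). TGFB1, a cytokine of many cell types that leukocytes make, was lower in the middle than in the primordial arrays by -3.18 ± 0.33 (adjusted p = 9.92e-05), with 67.3 and 83.5 against 643 and 1019. Immune markers moved with it, as given above, and their part was not tested. TGFB3 was higher in the last than in the primordial arrays by 1.14 ± 0.25 (adjusted p = 0.00771).

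Transcription factors known to act on the promoters of the member genes moved in both directions. NR5A2, a nuclear receptor of granulosa cells that can bind the same sites as NR5A1, had 3458 and 4891 in the primordial arrays, 185 and 137 on the middle-stage arrays and 11608 and 8676 in the last arrays. It was lowest in the middle arrays, as INHA was, at -4.56 ± 0.24 for middle minus primordial (adjusted p = 4.22e-06) and 5.84 ± 0.24 for last minus middle (adjusted p = 5.28e-06). CREM, whose products answer cyclic AMP and repress INHA in rat granulosa cells, was lower in the middle than in the primordial arrays by -1.71 ± 0.20 (adjusted p = 0.000185) at its brightest probe set. Of 4 tested probe sets of CREM 2 were called lower, the other one of them at -2.32 ± 0.26, and 2 were not called, at -0.12 ± 0.29 and 0.50 ± 0.27. NR0B1, which represses NR5A1, went the other way, with 8.3 and 3.8 in the primordial arrays, 227 and 254 on the middle-stage arrays and 60.8 and 63.1 in the last arrays. Its middle minus primordial difference was 3.54 ± 0.39 (adjusted p = 0.000136). Both primordial signals of NR0B1 lay below the pseudocount, so the size of this difference depends on it. Only in the middle arrays was the stage mean of NR0B1 above the lowest mean kept of 91.3, at 240 against 6.05 (primordial) and 61.95 (last). WT1 and GATA4, which act on the AMH promoter, were higher in the middle than in the primordial arrays by 2.31 ± 0.32 (adjusted p = 0.000426) and 1.25 ± 0.24 (adjusted p = 0.00227). WT1 was lower in the last than in the middle arrays by -1.57 ± 0.32 (adjusted p = 0.00995). This call ended without middle replicate 1 (-1.52) or 2 (-1.62). GATA4 was not called there, at -0.28 ± 0.24 (adjusted p = 0.450), unlike AMH. In last minus primordial it was higher, at 0.97 ± 0.24 (adjusted p = 0.0126). That call ended without primordial replicate 1 (0.98), primordial replicate 2 (0.97) or last replicate 1 (0.90). The probe sets of NR5A1 fell on either side of the threshold in middle minus primordial, the brighter at 0.77 ± 0.29 (adjusted p = 0.0517) and the dimmer at 0.85 ± 0.26 (adjusted p = 0.0242). Both were higher in the last than in the primordial arrays, by 1.47 ± 0.29 (adjusted p = 0.00479) and 1.12 ± 0.26 (adjusted p = 0.0108).

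The hormone that inhibin holds down acts through FSHR, the follicle-stimulating hormone receptor. FSHR had 276 and 291 in the primordial arrays, 314 and 310 on the middle-stage arrays and 137 and 146 in the last arrays. Middle minus primordial was 0.13 ± 0.23 (adjusted p = 0.666), and last minus middle was -1.06 ± 0.23 (adjusted p = 0.0139), a call that ended without middle replicate 1 (adjusted p = 0.0974) and middle replicate 2 (0.0635). CYP19A3, an aromatase gene and a readout of that hormone, had 8971 and 10896 in the primordial arrays, 1433 and 1924 on the middle-stage arrays and 14524 and 14555 in the last arrays. Like INHA it was lowest in the middle arrays, at -2.56 ± 0.18 for middle minus primordial (adjusted p = 1.50e-05) and 3.12 ± 0.18 for last minus middle (adjusted p = 1.31e-05). Of 3 tested probe sets of CYP19A3 another was called the same way in both comparisons (-2.67 and 4.51), and 1 was not called in either (0.0070 and 0.53). The pig has several aromatase genes of near-identical sequence, so the signal of this probe set may be shared among them. LHCGR, the luteinizing hormone receptor, was higher in the last than in the middle arrays by 2.84 ± 0.37 (adjusted p = 0.00115).

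**Figure D5:**
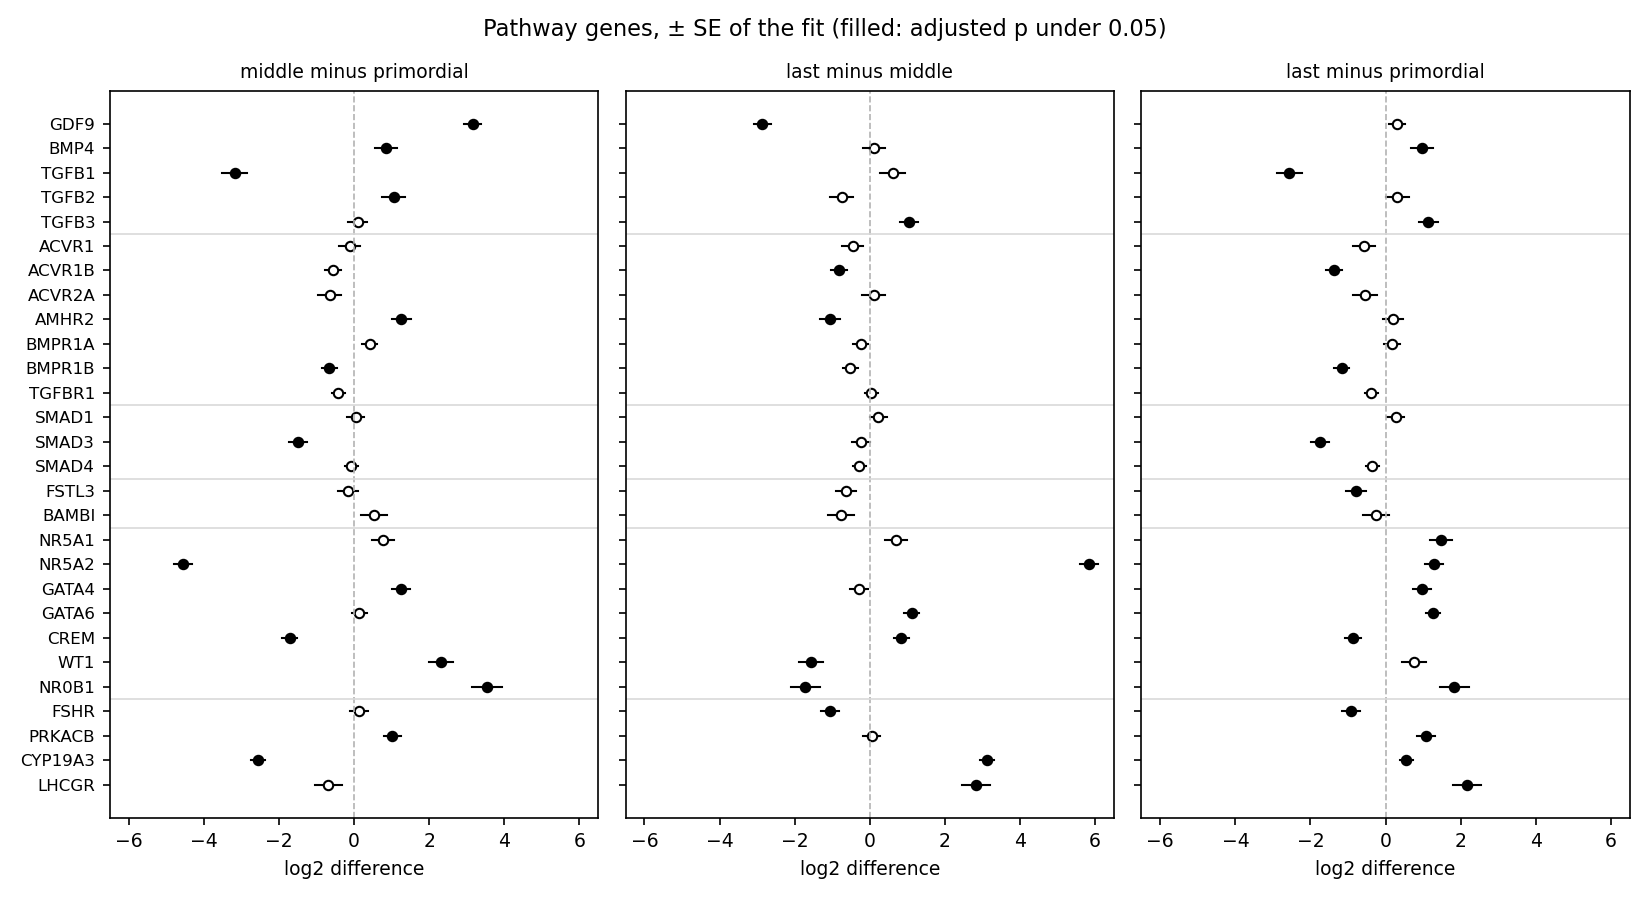
Log2 differences (± standard error of the fit) of the 28 pathway genes that passed the filter, grouped by list from ligands at the top through receptors, SMADs, binders and transcription factors to the follicle-stimulating hormone group. Filled points passed an adjusted p of 0.05; NR5A2 (-4.56) and CYP19A3 (-2.56) are lower and GDF9 (3.16) and AMHR2 (1.26) higher in middle minus primordial.

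The genes whose profiles over the 6 arrays were most like each member were found by the root mean square difference between centred log2 profiles, among 6961 probe sets with 1 symbol. For INHA they were TMEM120A at 0.106, PTGES, a prostaglandin E synthase, at 0.124 and OAF at 0.218, and 76 probe sets lay within 0.5. PTGES had mean signals of 5677 in the primordial arrays, 1167 on the middle-stage arrays and 5590 in the last arrays. For AMH the nearest were further away, with PDZK1 at 0.425, MGAT4C at 0.434 and SLC46A2 at 0.452, and 8 probe sets lay within 0.5. PDZK1, a scaffold protein of membrane transporters, had means of 31.7, 445 and 17.3 in stage order. MGAT4C had 89.2, 527 and 38.3. Only in the middle arrays were the means of PDZK1 and MGAT4C above the lowest mean kept by the filter. Their distances from AMH therefore depend on the pseudocount.

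For the FST S1_at probe set the nearest were METTL17 at 0.0728, the hypoxia-responsive transcription factor EPAS1 at 0.116 and ALAS1, the first enzyme of haem synthesis, at 0.120. For the FST A1_at probe set they were TTC8 at 0.0835, SCOC at 0.165 and FAIM at 0.181. Within 0.5 lay 800 probe sets for FST S1_at and 409 for FST A1_at. INHBA, which hardly moved, had 4485 probe sets within 0.5, so its nearest genes, ARL2BP, CHD6 and ACADS at 0.0575 to 0.0615, are 3 of many flat profiles. With 6 arrays in 3 stages, a small difference between profiles describes these arrays only.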

How the data were processed

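Per the labels' protocols, Trizol RNA was turned into biotinylated cRNA (from 6 µg) for 1 array per sample. GCOS made the values, per the submitters' processing notes, with its version not given in the sources used here. Deposited by the authors was a linear intensity per probe set, scaled with 1 factor per array, since all 6 means trimmed by 2% at each end came to 500.1. No detection call was used, and the number of arrays limits the precision.

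Of 24123 probe sets 124 controls were left out, and of the other 23999 the dimmest 40% by mean signal, those under 91.3. Values were taken as log2(signal + 16) and all 6 arrays were fitted together in limma 3.58.1 (R 4.3.3; lmFit and trended eBayes), with no replicate block, 3 residual and 6.33 prior degrees of freedom. Tests were two-sided. Dim members were fitted without the filter. The script was tested on simulated data. Symbols come from the platform annotation, which can be old.

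The members and lists were chosen with earlier results of these data known. Named were all member probe sets, up to 4 called genes per pathway list by F-test p, FSHR, AMHR2, TGFBR3, ACVR2A, NR5A1, NR5A2, GATA4 and FSTL3, and 3 genes of like profile per member. The lists of convertases (0 of 3 on the array), smooth muscle and endothelium were also made. For 7 smooth muscle genes the summed signal was 6864 to 7486 in the primordial arrays, 10091 to 11238 in the middle arrays and 32296 to 32376 in the last arrays, and for 10 endothelial genes 2211 to 2266, 1429 to 1609 and 3514 to 4529. Alternatives were other pseudocounts, filters, scalings, a replicate block, fits of 2 stages, no trend and each array left out. Figures were drawn with Python 3.11.15 and matplotlib 3.10.9.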

Additional observations from a re-analysis of the deposited data

How the results depend on the processing

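Of 666 alternative values for 43 results, 597 kept their direction and their side of the threshold, or for counts stayed within 1.5 times. INHA, FST S1_at and AMH kept both their calls against the middle arrays under every alternative run, with ranges for middle minus primordial, then last minus middle, of -2.62 to -1.81 and 1.87 to 2.65 for INHA, -1.30 to -0.60 and 1.26 to 1.73 for FST, and 1.98 to 2.84 and -3.82 to -2.97 for AMH. FST A1_at kept its calls in middle minus primordial (1.46 to 1.97) and last minus primordial (1.79 to 2.19). With 2 arrays per stage and no detection call, the dim INHBB probe sets limit what can be said of that gene. Where a result below changed, the cause was not tested. A fit with 1 array left out also has fewer arrays, and the stricter filter leaves fewer probe sets.

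In last minus primordial, 1 member probe set was called with no filter in place of 3: FST S1_at (0.60) and AMH (-0.99) then missed the threshold. AMH also missed it with a pseudocount of 64 (-0.78), and this FST probe set without an intensity trend (0.60). INHBB S1_at passed in last minus primordial with a pseudocount of 64 (0.73) and in middle minus primordial without an intensity trend (-1.18). With the dimmest 60% left out, 5 pathway genes were called higher in middle minus primordial and 3 lower in last minus middle.

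Other scalings moved small differences. With each array centred on its median over the probe sets tested, INHBA was at -0.12 and INHBB S1_at passed at -1.42 in middle minus primordial. In last minus primordial INHA was at -0.079, INHBB A1_at at -0.0061 and FST S1_at, no longer called, at 0.47. With quantile normalization INHBA was at -0.10, INHBB S1_at passed at -1.51 and INHBB A1_at was at -0.092 in middle minus primordial. INHBB A1_at was at 0.077 for last minus middle and -0.014 between last and primordial arrays. The change of the gap between the FST probe sets was then -2.23 in middle minus primordial and 1.04 in last minus middle. Of all calls in middle minus primordial, 62.7% were higher as deposited, 47.5% with median centring and 53.2% with quantile normalization. For last minus middle these shares were 42.3%, 54.8% and 48.5%, and for last against primordial arrays 59.7%, 47.4% and 52.3%.

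Centring on the median over all probe sets, dim ones included, was chosen after seeing the data. In middle minus primordial INHBA was then at -0.29, INHBB S1_at passed at -1.60, A1_at was at -0.13, and 5 pathway genes were called higher and 10 lower. In last minus middle INHBA was at 0.052 and INHBB A1_at at 0.033. In last minus primordial INHA was at -0.17, INHBB A1_at at -0.10 and FST S1_at, not called, at 0.38. FST A1_at missed the threshold for middle minus the mean of the others (0.56). The share of calls that were higher was 36.6% for middle minus primordial, 62.9% comparing last with middle arrays and 39.0% comparing last with primordial arrays.

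Leaving out each array in turn gave these ranges. In middle minus primordial 4356 (without middle replicate 1) to 7189 probe sets were called, INHBA ranged over -0.11 to 0.35 and INHBB A1_at over -0.15 to 0.71. In last minus middle 727 to 2172 probe sets were called, with 727 without middle replicate 1 and 1440 without middle replicate 2, and 1 to 6 pathway genes were lower. INHBA ranged over -0.37 to 0.10, INHBB S1_at over 2.02 to 2.66, A1_at over -0.48 to 0.17 and FST A1_at over -0.020 to 0.31. In last minus primordial 2730 (without primordial replicate 2; 2900 without primordial replicate 1) to 4297 probe sets, 1 to 3 members, 6 to 10 pathway genes higher and 4 to 7 lower were called. INHA ranged over -0.22 to 0.33, INHBA over -0.13 to 0.10, INHBB A1_at over -0.30 to 0.56, FST S1_at over 0.54 to 0.67 and AMH over -1.20 to -0.77. For middle minus the mean of the others 2037 (without middle replicate 1) to 5320 probe sets were called, and FST A1_at ranged over 0.78 to 0.95.

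The replicate numbers gave no sign of pairing: the correlation of replicate 1 minus replicate 2 between stages was 0.06 for primordial and middle, -0.05 for middle and last and 0.03 for primordial and last arrays. With a replicate block 6601, 2279 and 4532 probe sets were called in the 3 pairwise comparisons, in the order given above, and the block changed no member call.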
